A study of Mus musculus with 2 samples.

Results

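The genes described here encode the core and regulatory proteins of pre-mRNA splicing in mouse embryonic stem (ES) cells. They were taken by name from the deposited expression table, as every gene whose symbol begins with Srsf, Sf3a, Sf3b, Hnrnp or Snrp, leaving out Snrpn and symbols that contain -ps. This gave 52 genes of the 51826 listed. They comprise 11 SR proteins, 20 heterogeneous nuclear ribonucleoproteins (hnRNPs), 3 SF3A and 6 SF3B subunits, 7 core Sm proteins, 4 proteins specific to the U1 or U2 particle, and Snrpert, a processed pseudogene listed at 0 TPM in both libraries. TPM, a share of transcripts scaled to the same total in each library, takes gene length and library size into account. The listed values matched a length that joins the exons of all annotated transcripts of a gene. That length was 2.72 times the longest transcript for Srsf11 and equal to it for Sf3b5, so levels of different genes compare only roughly. Of the 52 genes, 50 averaged 1 TPM or more over both libraries and were compared; the other two are Snrpert and Srsf12, which was at 0.577 TPM in the T29I library and 0.734 TPM in the wild-type library.

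Total RNA, depleted of ribosomal RNA, was sequenced from v6.5 mouse ES cells in 1 library from cells with the genotype T29I and 1 library from wild-type (WT) cells. The series title names the PRSS1 gene, which encodes a trypsinogen, as the mutated gene, and Prss1 was listed at 0 TPM in both libraries, so its level is no check of the genotype. Both samples share the source line and the strain label NBA1-19349, and the labels do not say whether the T29I cells are 1 clone. With 1 library per group no difference was replicated, no p-value is given, and "higher" and "lower" describe these 2 libraries.

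Splicing removes introns with the spliceosome, which is built from small nuclear ribonucleoprotein particles (snRNPs). A ring of core Sm proteins surrounds the RNA of most of these particles, the SF3A and SF3B complexes help the U2 particle to hold the branch site, and further proteins are found in only one particle. SR proteins carry domains rich in arginine and serine, bind exons and mostly favour their inclusion, whereas hnRNPs coat nascent RNA and often oppose it. Many SR protein and hnRNP genes limit their own output through transcripts that hold a premature stop codon and are destroyed by nonsense-mediated decay.

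Estimated depth was 15281662 reads in the T29I library and 16910002 reads in the WT library, with 17704 genes above 0 TPM in the T29I library and 19332 in the WT library. The 8 ES cell markers examined summed to 4955 TPM in the T29I library and 6063 TPM in the WT library and Zfp42, the lowest of them in the T29I library, was at 23.3 TPM in the T29I library and 544 TPM in the WT library. Nanog was at 140.3 TPM in T29I cells and 765 TPM in WT cells, and Pou5f1 at 1454 TPM in T29I cells and 1722 TPM in WT cells. Utf1 alone among the 8 was higher in the T29I library, at 2459 TPM against 972 TPM in the WT library. It was also the largest part of the T29I sum. Among 8 trophoblast markers, 7 reached 1 TPM in the T29I library and 4 in the WT library, with sums of 924 TPM in the T29I library and 121 TPM in the WT library. Most of the T29I sum came from Krt8, at 389 TPM in T29I cells and 28.6 TPM in WT cells, and Krt18, at 353 TPM and 15.4 TPM. Hand1 was at 79.5 TPM in T29I cells and 0.868 TPM in WT cells. Tfap2c went the other way, at 53.1 TPM in T29I cells and 73.4 TPM in WT cells. The defining factor Cdx2 was at 0.402 TPM in T29I cells and 0.256 TPM in WT cells. The 7 fibroblast markers summed to 19.5 TPM in T29I cells and 6.18 TPM in WT cells, mostly Thy1, with Lum at 0 in both libraries. Primitive endoderm markers (6 genes) summed to 2.55 TPM in T29I cells and 8.58 TPM in WT cells. Neural markers (5 genes), mostly Tubb3, summed to 271 TPM in T29I cells and 245 TPM in WT cells. The part of these markers in the ratios of the splicing genes was not tested.

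The splicing genes made up 0.927% of all TPM in the T29I library and 1.60% in the WT library. Of the 50 measured genes, 26 were lower in the T29I library by 2-fold or more, 2 were higher by 2-fold or more, and 22 lay in between, on the log2(TPM + 1) scale. The background was 45.7% lower and 9.97% higher among all 12943 genes that averaged 1 TPM or more. Among the 2671 abundant coding genes, those that averaged 50 TPM or more, 32.4% were lower and 12.6% higher. The median log2 ratio of T29I over WT was -1.18 for the splicing genes, -0.84 for all genes and -0.38 for those abundant coding genes. The classes differed: the hnRNPs had a median of -1.62, the SR proteins -1.02, the SF3B subunits -0.88, the SF3A subunits -0.44, the core Sm proteins 0.0087 and the proteins specific to U1 or U2 0.20. The plot of levels shows each gene in both libraries.

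**Figure D1:**
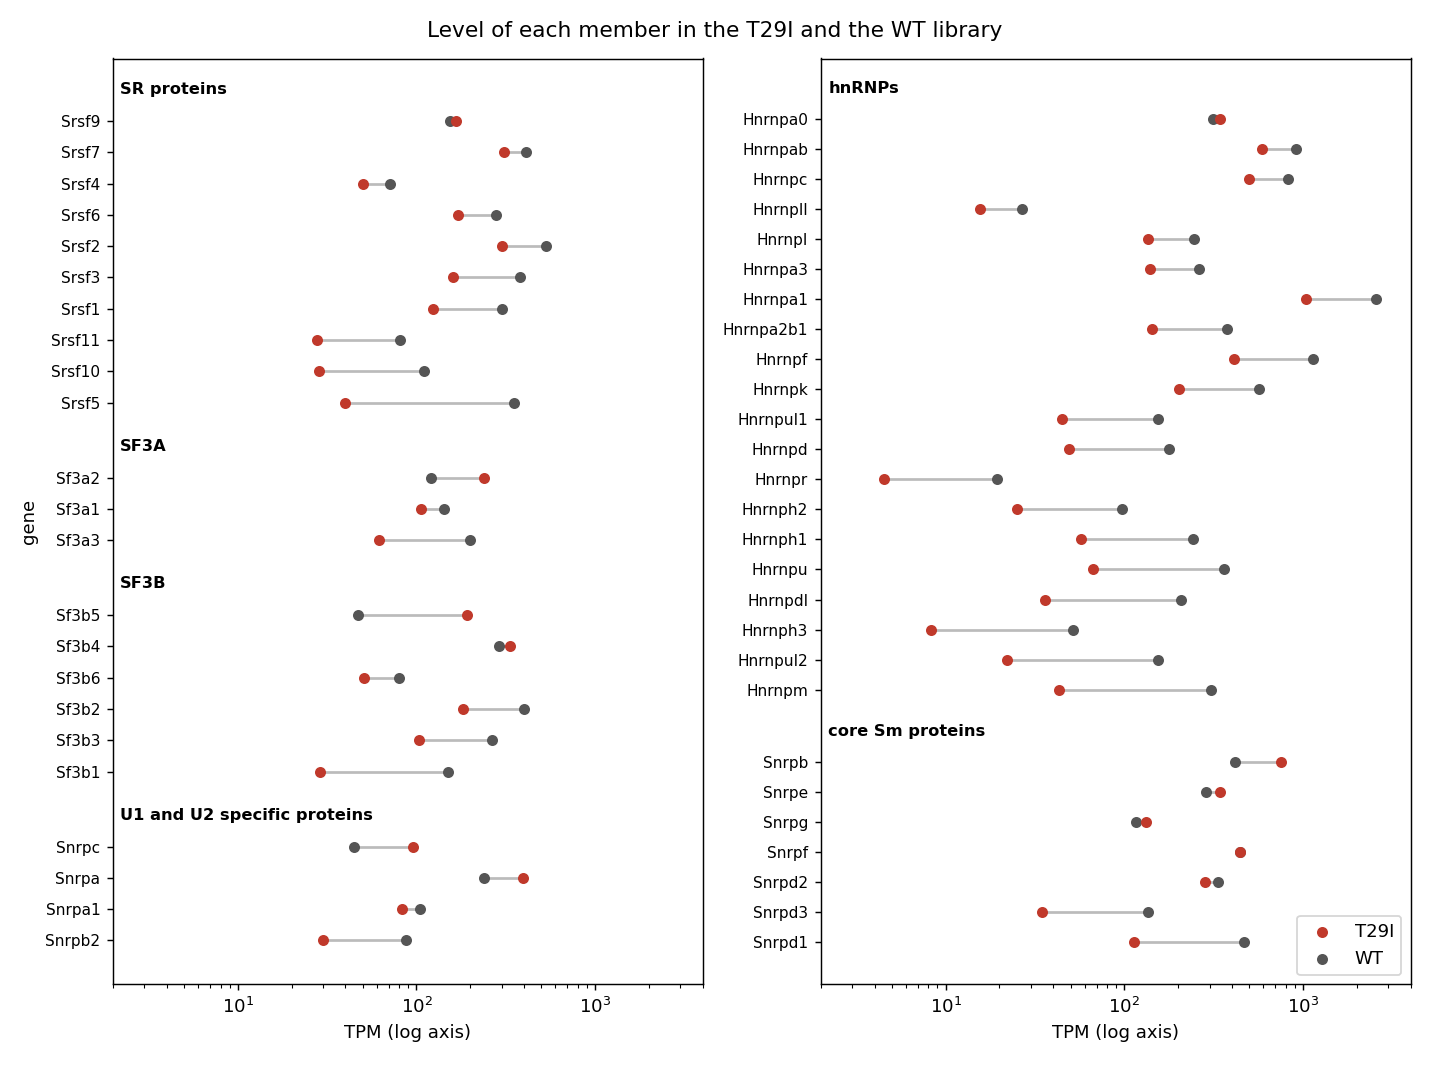
TPM on a log axis for each of the 50 measured genes, by class, with the T29I library in red and the WT library in grey. The red point lies left of the grey one for 39 of the 50 genes, including 19 of 20 hnRNPs and 9 of 10 SR proteins, while 4 of the 7 core Sm proteins have the red point at or to the right of the grey one. For comparison, 9249 of 12943 genes that averaged 1 TPM or more and 1624 of the 2671 abundant coding genes were lower in the T29I library.

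Because most genes were lower in the T29I library, the ratios are also given relative to the shift, the median log2 ratio of -0.90 over the 9375 genes that averaged 5 TPM or more. Relative to it, 12 of the 50 genes were lower by 2-fold or more and 10 higher. The background was 22.2% lower and 26% higher among all genes, and 14.3% lower and 36.4% higher among abundant coding genes. The ratios over all coding genes followed transcript length and GC content, with Spearman's rho of -0.53 and 0.56 across 9100 genes, which are not independent replicates. A ratio adjusted for both is therefore given as well, as the residual of a fit on the longest annotated transcript. On that scale 8 splicing genes were lower by 2-fold or more and 8 higher. The background was 15.5% lower and 17.6% higher among all genes and 12.1% lower and 15.9% higher among abundant coding genes, so both counts lay near it. With the length and GC content of the coding sequence in place of the transcript, 11 were lower and 2 higher. Here the background was 15.4% lower and 17.7% higher among all genes and 10.5% lower and 20.6% higher among abundant coding genes.

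On all 4 scales 6 splicing genes were lower by 2-fold or more, namely Srsf5, Hnrnpm, Hnrnpul2, Hnrnpdl, Hnrnph3 and Snrpd1, and 1 was higher, Sf3b5. The ratios as deposited and relative to the shift differ only by a constant, so they are not separate checks. A gene called lower relative to the shift is always lower as deposited, and one called higher as deposited is always higher relative to the shift. The 6 and 1 genes are 12.0% and 2.00% of the 50, against a background of 6.45% lower and 5.86% higher among 12121 coding genes that averaged 1 TPM or more. Shares on all 4 scales were not computed for the abundant coding genes, whose shares on single scales differed from those of all genes. Genes above 0 on each of the 4 scales numbered 7 (14.0%), under the 23.5% of those coding genes, and were Sf3b5, Snrpa, Snrpb, Snrpc, Snrpe, Snrpf and Snrpg. Genes below 0 on each scale numbered 16 (32.0%), near the 29.5% of those coding genes.

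**Figure D2:**
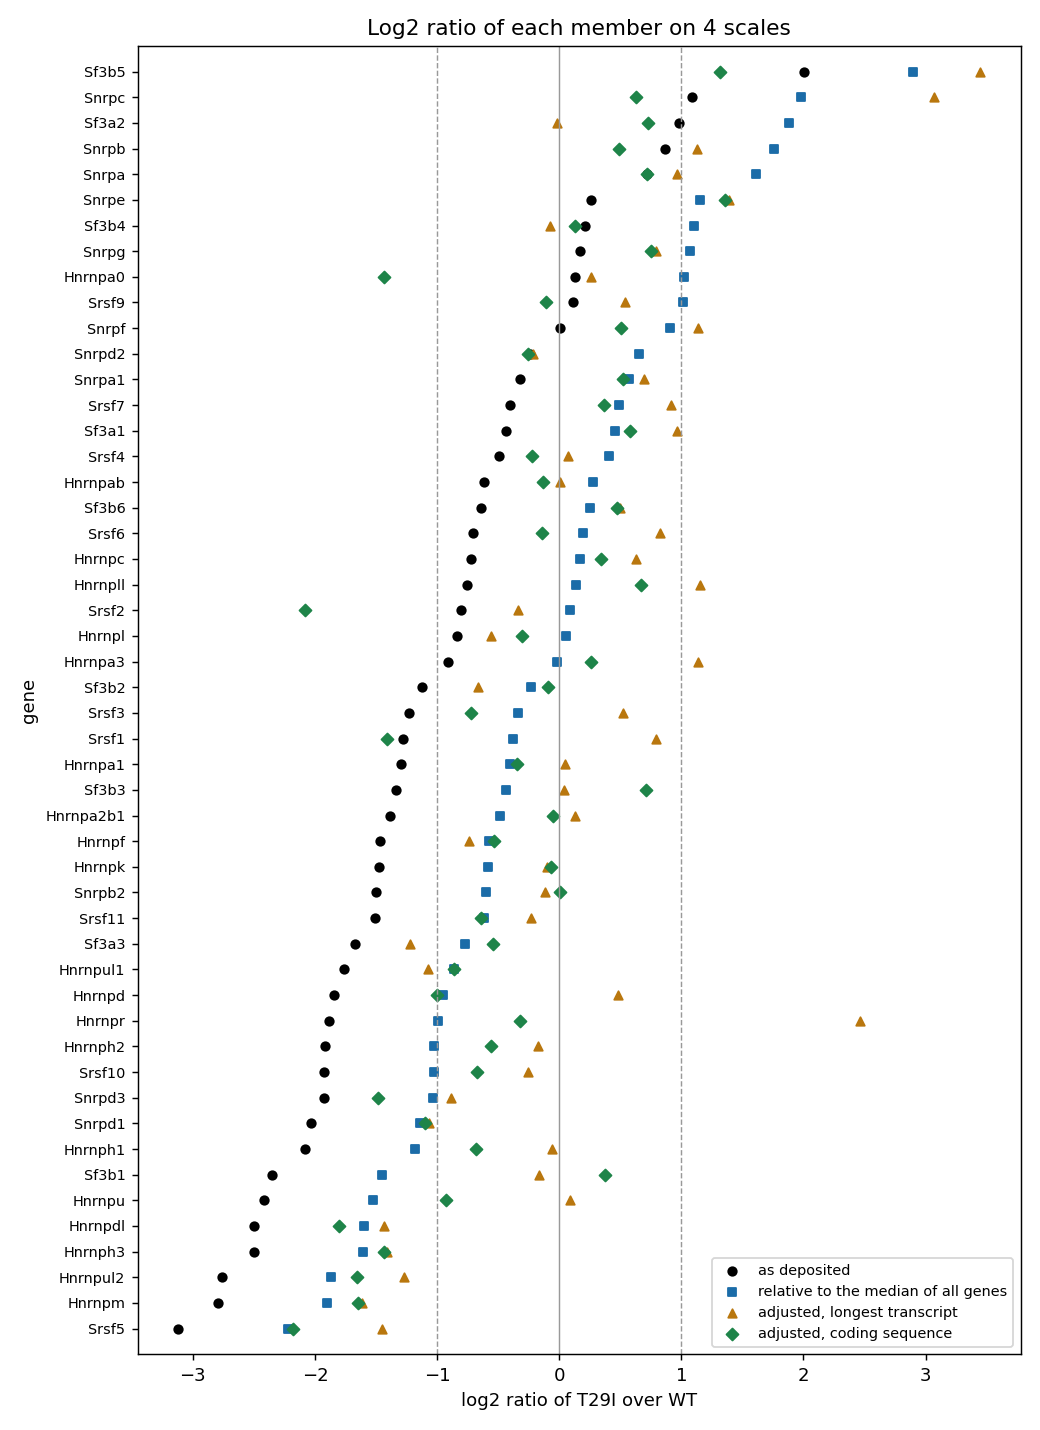
Log2 ratio of T29I over WT for each of the 50 genes on 4 scales, with dashed lines at 2-fold. The scales are as deposited, relative to the shift, and adjusted with the longest transcript or with the coding sequence. The plot labels the shift as the median of all genes, but it is the median over genes that averaged 5 TPM or more. Sf3b5 lies beyond the upper dashed line on each scale and 6 genes, among them Srsf5, Hnrnpm and Snrpd1, beyond the lower one, while the points of Hnrnpr run from -1.89 to 2.47.

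Promoters are shown for the highest and the lowest ratios among genes with a single entry in the RefSeq promoter table (build GRCm38.p6), which held 44 of the 50 genes with 58 promoters. Each runs from 250 bases before to 50 bases after the annotated start, and capitals mark matches on either strand to a set of promoter motifs. The TATA motif was searched for as TATAAA, where the general transcription machinery can bind. The motif of the factor NF-Y was searched for as CCAAT, named below by these letters. The GC box, which Sp factors bind, was searched for as GGGCGG. The core site of the ETS family of factors was searched for as CCGGAAG. For the factor YY1 the letters were AAGATGGC, and for the E box of the Myc family they were CACGTG. Snrpc and Sf3a2 had the highest ratios and Srsf5 and Hnrnpm the lowest.
Snrpc (chr17:27839837-27840136, + strand): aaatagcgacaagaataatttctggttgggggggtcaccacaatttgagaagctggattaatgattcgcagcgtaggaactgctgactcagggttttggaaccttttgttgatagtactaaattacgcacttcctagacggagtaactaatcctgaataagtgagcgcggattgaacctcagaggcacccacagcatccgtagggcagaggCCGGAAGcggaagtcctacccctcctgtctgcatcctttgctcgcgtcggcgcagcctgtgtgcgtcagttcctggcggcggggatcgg
Sf3a2 (chr10:80798485-80798784, + strand): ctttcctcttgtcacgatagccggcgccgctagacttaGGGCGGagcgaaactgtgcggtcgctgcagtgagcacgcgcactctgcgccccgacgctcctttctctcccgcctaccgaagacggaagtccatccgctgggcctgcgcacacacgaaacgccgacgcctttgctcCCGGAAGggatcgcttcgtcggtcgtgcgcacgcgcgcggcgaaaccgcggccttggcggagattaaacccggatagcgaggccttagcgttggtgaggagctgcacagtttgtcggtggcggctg
Srsf5 (chr12:80945249-80945548, + strand): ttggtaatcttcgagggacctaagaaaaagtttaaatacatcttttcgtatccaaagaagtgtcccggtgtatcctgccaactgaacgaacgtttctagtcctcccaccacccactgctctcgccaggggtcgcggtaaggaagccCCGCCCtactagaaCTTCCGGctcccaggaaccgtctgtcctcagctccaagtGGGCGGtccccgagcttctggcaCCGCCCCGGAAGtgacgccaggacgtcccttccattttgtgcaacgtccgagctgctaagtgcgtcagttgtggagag
Hnrnpm (chr17:33685409-33685708, - strand): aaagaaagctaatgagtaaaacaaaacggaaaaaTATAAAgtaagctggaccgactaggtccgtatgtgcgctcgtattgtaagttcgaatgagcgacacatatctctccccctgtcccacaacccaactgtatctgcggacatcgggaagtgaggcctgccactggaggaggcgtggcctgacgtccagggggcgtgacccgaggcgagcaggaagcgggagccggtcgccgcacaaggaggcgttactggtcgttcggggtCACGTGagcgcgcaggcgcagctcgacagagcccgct
The Snrpc window holds 1 ETS core and no other motif of the list, and the Sf3a2 window 1 GC box and 1 ETS core. In the Srsf5 window 3 GC boxes and 2 ETS cores were found, and 1 of each overlap near the start. The Hnrnpm window holds 1 TATA box and 1 E box. None of the 4 windows contains the YY1 or CCAAT letters.

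Over all 58 promoters of the splicing genes, the ETS core was found in 36.2%, against 8.86% of the 32851 promoters in the table and 23.6% of the 2607 promoters of abundant coding genes. The GC box was in 72.4%, against 35.7% and 67.9%, and the CCAAT box in 46.6%, against 37.4% and 41.0%. The TATA box was in 10.3%, against 13.6% and 7.10%. The E box was in 12.1%, against 7.15% and 13.0%, and the YY1 core in 3.45%, against 2.75% and 6.83%. Median GC content was 61.0% in these promoters, 52.7% in all promoters and 61.3% in those of abundant coding genes. The ETS core was in 8 of 24 splicing genes called lower and 8 of the other 20, and the CCAAT box in 14 of 24 and 8 of 20. The GC box was in 17 of 24 and 15 of 20, and the TATA box in 3 of 24 and 3 of 20. For the E box the counts were 4 of 24 and 2 of 20, and for the YY1 core 1 of 24 and 1 of 20. These are counts of letters in a fixed window and do not show binding.

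SR proteins were mostly lower in the T29I library, as were most genes. Of the 10 SR proteins 5 were called lower (2-fold or more) and 0 higher, against 45.7% and 9.97% of all genes. The SR protein sum was 1380 TPM in the T29I library and 2664 TPM in the WT library. Relative to the shift 2 were lower and 1 higher with a median of -0.12, against 22.2% and 26% of all genes. The median was 0.30 after the transcript adjustment and -0.66 after the coding one, so the direction of the class differed between the scales. Srsf5, which has a pair of RNA recognition motifs, had the lowest ratio of all 50 splicing genes at 39.6 TPM in T29I cells (95% exact Poisson interval, 37.2 to 42.0) and 351 TPM in the WT library (343 to 360), a log2 ratio of -3.12. It lies on the + strand of chromosome 12 from 80945504 in GENCODE M21 (GRCm38), and its adjusted log2 ratios were -1.46 with the longest transcript and -2.18 with the coding sequence. In the WT library Srsf5 ranked among the 4 most abundant SR protein genes, and in the T29I library below Srsf1, Srsf2, Srsf3, Srsf4, Srsf6, Srsf7 and Srsf9.

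The other SR proteins spread between log2 ratios of -1.92 and 0.12. Srsf10, which turns into a splicing repressor when it loses its phosphates, was at 28.3 TPM in the T29I library and 110.1 TPM in the WT library. Srsf11 was at 27.6 TPM in T29I cells and 80.4 TPM in WT cells. Srsf1, the founding member of the family, was at 124 TPM in the T29I library against 302 TPM in the WT library, a log2 ratio of -1.28 that became 0.79 with the transcript adjustment and -1.41 with the coding one. Its direction thus depends on which sequence is used: the longest transcript has 5362 bases at 40.6% GC and the coding sequence 253 codons at 58.2% GC. Srsf3, the smallest SR protein, with 164 codons here, was at 161 TPM in T29I cells and 378 TPM in WT cells.

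Srsf2, which marks nuclear speckles, was the most abundant in the WT library and close to Srsf7 in the T29I library, at 302 TPM in T29I and 528 TPM in WT cells. Srsf7, which has a zinc knuckle beside its RNA recognition motif, was at 308 TPM in the T29I library and 409 TPM in the WT library. Srsf6 was at 172 TPM in T29I cells and 280.0 TPM in WT cells, and Srsf4, its close relative, at 50.2 TPM in T29I cells and 70.9 TPM in WT cells. Srsf9 had the highest ratio of the class at 167 TPM in T29I cells and 154 TPM in WT cells, a log2 ratio of 0.12 with a counting interval of 0.013 to 0.22, which covers counting error only.

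The hnRNPs were the class with the lowest median ratio as deposited. Of the 20 hnRNPs 14 were called lower and 0 higher, against 45.7% and 9.97% of all genes. The hnRNP sum was 3876 TPM in the T29I library and 8994 TPM in the WT library, 2.32-fold lower in T29I cells. Relative to the shift 7 were lower and 1 higher, against 22.2% and 26% of all genes, with a median of -0.73. After the transcript adjustment 5 were lower and 3 higher, against 15.5% and 17.6%, with a median of -0.026. After the coding adjustment 6 were lower and 0 higher, against 15.4% and 17.7%, with a median of -0.55. The hnRNP transcripts are long, with a median of 3714.5 bases, and AT-rich, with a median GC content of 43.9%, against 3174 bases and 50.2% for the coding genes behind the fit.

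Hnrnpa1, whose protein represses exons and binds widely in the nucleus, was the most abundant splicing gene of the list in both libraries. It was at 1036 TPM in the T29I library, where it ranked 144 among all genes, and 2548 TPM in the WT library, where it ranked 42. Its log2 ratio was -1.30 as deposited, 0.043 after the transcript adjustment and -0.35 after the coding one. Hnrnpf, which binds runs of G, was at 412 TPM in T29I cells and 1141 TPM in WT cells, and kept a ratio below 0 on every scale. Hnrnpk, a poly(C)-binding protein with KH domains, was at 203 TPM in T29I cells and 568 TPM in WT cells. Hnrnpa2b1, a relative of Hnrnpa1, was at 143 TPM in T29I cells and 375 TPM in WT cells.

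At the low end, 4 of the 20 hnRNP genes were lower by 2-fold or more on each of the 4 scales, against 6.45% of 12121 coding genes. Hnrnpm, which binds GU-rich RNA, was at 43.1 TPM in T29I cells (counting interval 41.4 to 45.0) and 306 TPM in the WT library (301 to 311), 7.09-fold lower in TPM. Its adjusted log2 ratios were -1.62 with the transcript and -1.65 with the coding sequence. Hnrnpul2 was at 22 TPM in T29I cells and 155 TPM in WT cells, with adjusted log2 ratios of -1.27 and -1.66. Hnrnpdl, related to Hnrnpd and known for controlling its own splicing, was at 36.2 TPM in T29I cells and 209 TPM in WT cells, with adjusted log2 ratios of -1.43 and -1.80. Hnrnph3 was at 8.26 TPM in T29I cells and 51.4 TPM in WT cells, with adjusted log2 ratios of -1.41 and -1.44. Hnrnpm and Hnrnpul2 share exon bases with a gene on the same strand, March2 and AC129217.1, and Hnrnph3 with Rufy2 on the other strand, so reads could have been split between them.

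The relatives of these genes took other positions. Hnrnph1 and Hnrnph2, which like Hnrnpf and Hnrnph3 belong to the group that binds G runs, lay nearer to 0 than Hnrnph3 on each scale. Hnrnph1 was at 57.0 TPM in T29I cells and 244 TPM in WT cells, with adjusted log2 ratios of -0.061 with the transcript and -0.69 with the coding sequence. Hnrnph2 was at 25.0 TPM in T29I cells and 97.4 TPM in WT cells, with adjusted log2 ratios of -0.18 and -0.56. Hnrnpd, which binds AU-rich elements and regulates mRNA decay, was at 48.9 TPM in T29I cells and 178 TPM in WT cells, and its direction differed between the adjustments, with log2 ratios of 0.48 with the transcript and -1.002 with the coding sequence. Hnrnpul1 was at 44.9 TPM in T29I cells and 155 TPM in WT cells, with adjusted log2 ratios of -1.07 and -0.86. Hnrnpu, a scaffold protein of nuclear chromatin, was at 67.1 TPM in T29I cells and 364 TPM in WT cells, with adjusted log2 ratios of 0.090 with the transcript and -0.93 with the coding sequence. Hnrnpr was the least abundant hnRNP gene at 4.53 TPM in T29I cells and 19.5 TPM in WT cells. Its longest annotated transcript has 21452 bases, while the one with the longest coding sequence has 2683, and the adjusted log2 ratio was 2.47 with the longest transcript against -0.32 with the coding sequence.

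The hnRNPs that differed least included the abundant Hnrnpab and Hnrnpc. Hnrnpc, a nuclear protein that binds U tracts, was at 500.2 TPM in T29I cells and 826 TPM in WT cells. Hnrnpab was at 591 TPM in T29I cells and 909 TPM in WT cells. Hnrnpl, which binds CA repeats, was at 136 TPM in T29I cells and 245 TPM in WT cells, and its paralog Hnrnpll at 15.5 TPM in T29I cells and 26.9 TPM in WT cells. Hnrnpa3 was at 139 TPM in T29I cells and 262 TPM in WT cells, with adjusted log2 ratios of 1.14 with the transcript and 0.26 with the coding sequence. Hnrnpa0, a gene with a single annotated transcript, was the one hnRNP gene above 0 as deposited, at 343 TPM in T29I cells and 314 TPM in WT cells, with adjusted log2 ratios of 0.26 with the transcript and -1.43 with the coding sequence.

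**Figure D3:**
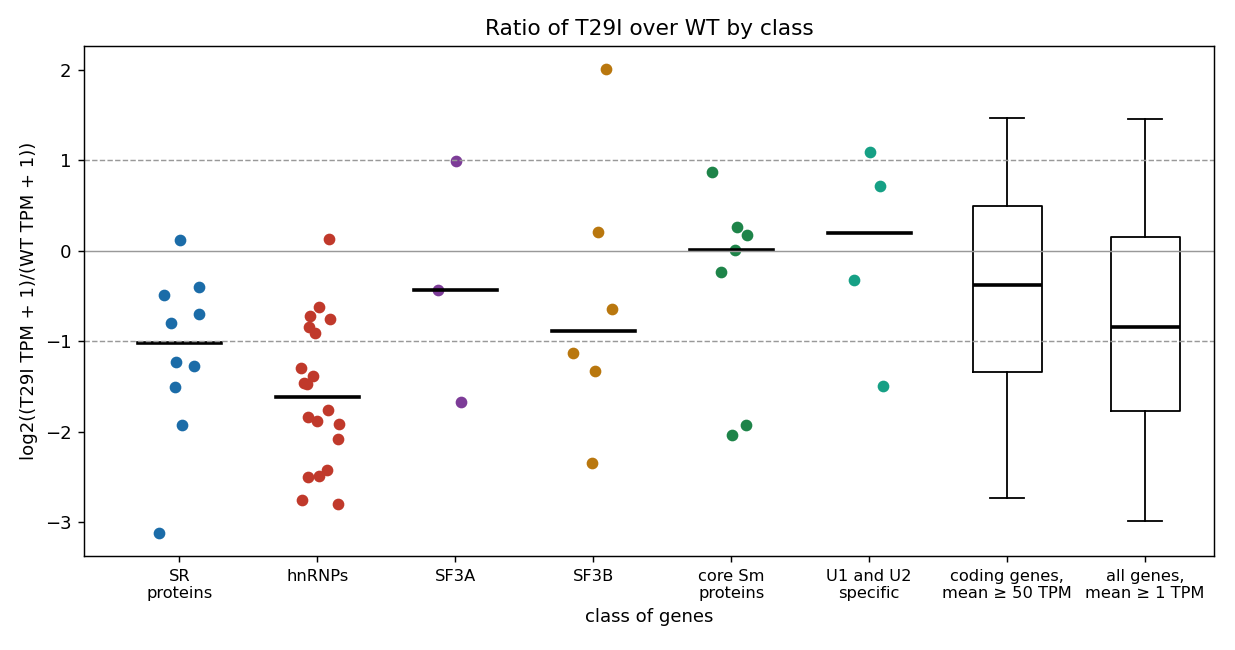
Log2 ratio of T29I over WT on the log2(TPM + 1) scale, with one point per gene and a black line at the class median. The boxes at the right show coding genes that averaged 50 TPM or more and all genes that averaged 1 TPM or more (median, quartiles, whiskers at the 5 and 95 percentiles); the hnRNP median of -1.62 lies below both box medians, and those of the core Sm and the U1 or U2 specific proteins, 0.0087 and 0.20, above both.

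Of the 9 genes of the SF3A and SF3B complexes of the U2 particle, 4 were called lower and 1 higher, near the 45.7% and 9.97% of all genes. As deposited, 3 lay above 0 and 6 below, against 3694 above and 9249 below among all 12943 genes. Sf3b5, a small subunit with 86 codons, had the highest ratio of all 50 splicing genes at 192 TPM in T29I cells (counting interval 187 to 198) and 47.1 TPM in the WT library (44.2 to 50.3), 4.08-fold higher in TPM. It lies on the + strand of chromosome 10 from 13005343 in GENCODE M21 and has 1 annotated transcript, of 3841 bases. Its log2 ratio was 2.00 as deposited, 3.45 after the transcript adjustment and 1.31 after the coding adjustment. Sf3b1, the largest subunit with 1304 codons, which clamps the branch site and is the target of several splicing inhibitors, was at 28.8 TPM in T29I cells and 151 TPM in WT cells. Its log2 ratio was -2.35 as deposited, -0.17 after the transcript adjustment and 0.38 after the coding one. Sf3b3, the scaffold that holds Sf3b5, was at 104 TPM in T29I cells and 263 TPM in WT cells.

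Among the other SF3B subunits, Sf3b2 was at 183 TPM in T29I cells and 400.4 TPM in WT cells. Sf3b4, the RNA-binding partner of Sf3b2, was at 335 TPM in T29I cells and 289 TPM in WT cells. Sf3b6 was at 50.7 TPM in T29I cells and 79.6 TPM in WT cells. In listed TPM the most abundant of the 6 SF3B genes stood 11.6-fold above the least in the T29I library and 8.49-fold in the WT library. These folds also depend on the gene lengths used for TPM. In SF3A, which bridges the U2 particle and SF3B, Sf3a2 was at 239 TPM in T29I cells and 120.3 TPM in WT cells, with a log2 ratio of 0.98 just under the 2-fold line. Its transcript is the most GC-rich of the list at 62.2%, and the adjusted log2 ratios were -0.022 with the transcript and 0.73 with the coding sequence. Sf3a1 was at 106 TPM in T29I cells and 143 TPM in WT cells, and Sf3a3 at 61.8 TPM in T29I cells and 199 TPM in WT cells.

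The core Sm proteins, which assemble as a ring of B, D1, D2, D3, E, F and G, summed to 2107 TPM in the T29I library and 2198 TPM in the WT library. Of the 7 genes 2 were called lower, Snrpd1 and Snrpd3, and 0 higher, against 45.7% and 9.97% of all genes. Relative to the shift the same 2 counted as lower and 3 as higher, against 22.2% and 26% of all genes. The class median of 0.90 on that scale was also above 0 after the transcript adjustment (0.79) and the coding one (0.49). Snrpd1 was at 114 TPM in T29I cells (counting interval 108 to 120) and 469 TPM in the WT library (456 to 482), a log2 ratio of -2.03. Snrpd3 was at 34.7 TPM in T29I cells and 135 TPM in WT cells, a log2 ratio of -1.93. Their partners in the ring had other ratios. Snrpd2, which pairs with Snrpd1, was at 281 TPM in T29I cells and 333 TPM in WT cells. Snrpb, which pairs with Snrpd3, was at 756 TPM in T29I cells and 415 TPM in WT cells, a log2 ratio of 0.86.

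Snrpd1 and Snrpd3 also stayed below 0 with length and GC content taken into account. Adjusted log2 ratios were -1.07 and -1.10 for Snrpd1 and -0.88 and -1.48 for Snrpd3 with the transcript and the coding sequence in turn. The longest Snrpd1 transcript, with 858 bases, is the shortest of the list after Snrpe. Snrpe, Snrpf and Snrpg form the third subcomplex of the ring. Snrpe was at 345 TPM in T29I cells and 288 TPM in WT cells. Snrpf was at 445 TPM in T29I cells and 442 TPM in WT cells, and the counting interval of its ratio spans 0. Snrpg was at 132 TPM in T29I cells and 117 TPM in WT cells. The highest of the 7 levels stood 21.8-fold above the lowest in the T29I library and 4.01-fold in the WT library.

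Snrpg is uncertain in level, because Gm8186, annotated as a processed pseudogene, matches its whole coding sequence at 100% identity and was listed at 179 TPM in T29I cells and 151 TPM in WT cells. With the copies added, the log2 ratio of Snrpg was 0.22 instead of 0.17. Over the 50 genes, 22 had at least 1 other gene that matched at least 50% of the coding sequence at 90% identity or more, 85 such copies in all. Adding their TPM changed 0 of the calls and moved no log2 ratio by more than 0.045. Hnrnpa3 had the most, with 31 copies that summed to 0.755 TPM in T29I cells and 9.78 TPM in WT cells. Hnrnpa1 had 10 copies that summed to 0.913 TPM in T29I cells and 31.4 TPM in WT cells.

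Of the proteins found in a single particle, Snrpc and Snrpa of the U1 snRNP, which recognises the start of introns, were higher in the T29I library. Snrpc was at 96.1 TPM in T29I cells (counting interval 93.2 to 99.1) and 44.7 TPM in the WT library (42.5 to 47.1), a log2 ratio of 1.09. Snrpa was at 394 TPM in T29I cells and 239 TPM in WT cells, a log2 ratio of 0.72. Snrnp70, the third protein specific to U1, lies outside the symbol rule and was at 218 TPM in T29I cells and 221 TPM in WT cells. In the U2 particle, Snrpa1 was at 82.9 TPM in T29I cells and 104 TPM in WT cells, and Snrpb2 at 30.1 TPM in T29I cells and 87.0 TPM in WT cells. For Snrpc the longest annotated transcript has 6107 bases and that with the longest coding sequence 882, and the adjusted log2 ratio was 3.07 with the longest transcript and 0.63 with the coding sequence.

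Length and GC content moved with the ratios among the splicing genes too. Across the 50 genes, Spearman's rho between log2 ratio and longest transcript was -0.43, and that between log2 ratio and GC content was 0.37; the genes share both libraries and these values only describe them. The 6 genes with transcripts under 1500 bases had a median log2 ratio of 0.062 with 1 called lower. The 26 genes of 3000 bases or more had a median of -1.45 with 19 lower and 2 higher, Sf3b5 and Snrpc. Among all genes, of any length, 45.7% were lower and 9.97% higher. After the transcript adjustment the medians were 0.66 for the short and 0.057 for the long transcripts. Over the 9100 coding genes, the fit on both took up 44.9% of the variance with the transcript and 41.2% with the coding sequence.

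**Figure D4:**
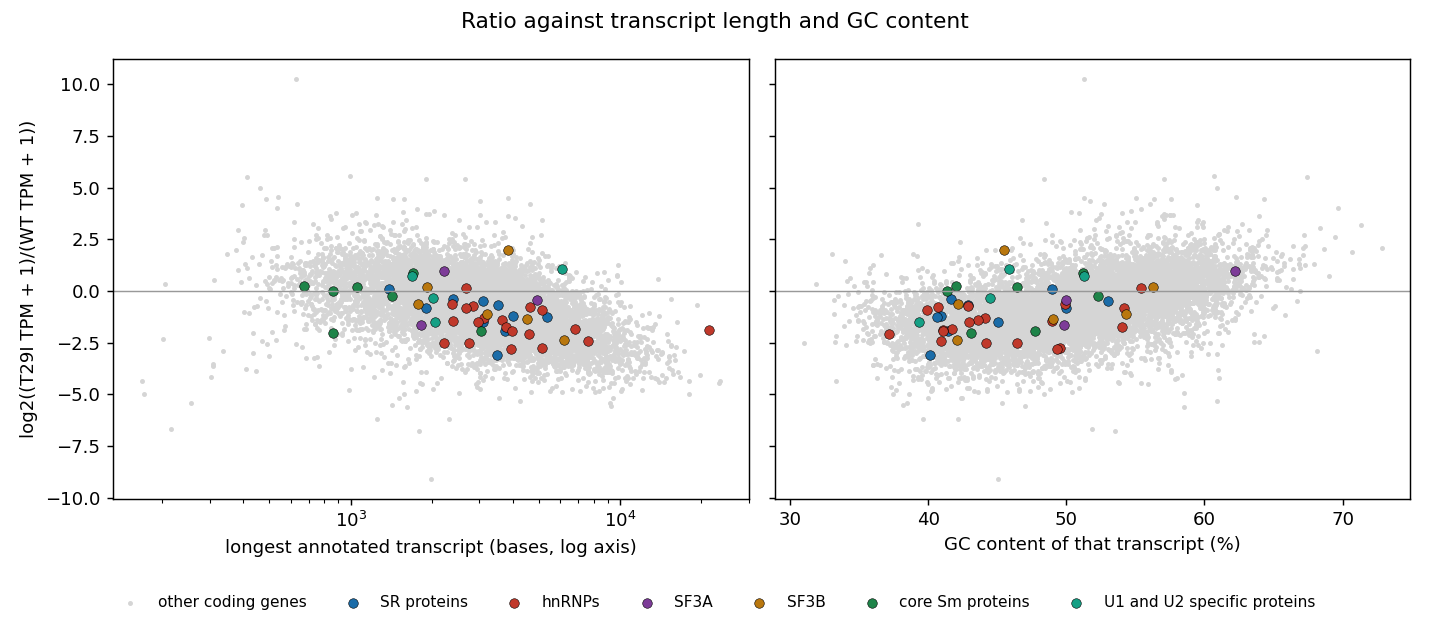
Log2 ratio of T29I over WT against the length of the longest annotated transcript (log axis, left) and its GC content (right), with splicing genes coloured by class over other coding genes that averaged 5 TPM or more in grey. Points run down to the right in the left panel (rho -0.43 over the 50 genes) and up to the right in the right one (0.37), with Sf3b5 at 2.00 and Snrpc at 1.09 above the other splicing genes.

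Transcripts annotated for nonsense-mediated decay were found for 9 of the 10 SR protein genes, 10 of 20 hnRNP genes, 2 of 4 genes specific to U1 or U2, 2 of 7 core Sm genes, 1 of 6 SF3B genes and 0 of 3 SF3A genes. The share was 48.0% of the 50 splicing genes, against 28.1% of 12121 coding genes and 26.7% of the abundant ones. Retained introns were annotated for 76.0%, against 57.5% and 63.0%. The splicing genes have a median of 6 annotated transcripts and coding genes 5. The 24 genes with a decay transcript had a median log2 ratio of -1.25 and the 26 without one -1.02. After the transcript adjustment the order was the other way round, with medians of 0.31 with and -0.068 without a decay transcript. The deposited values are one per gene, so productive and decaying transcripts cannot be told apart.

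Other genes of splicing were compared as 8 lists of 155 symbols, of which 153 were listed and 150 averaged 1 TPM or more. Of these 79 were called lower in the T29I library and 6 higher, with a median log2 ratio of -1.09, close to the -1.18 of the SR, hnRNP, SF3 and Sm genes. The background was 45.7% lower and 9.97% higher among all genes. After the transcript adjustment 28 were lower and 18 higher, with a median of 0.038, against 15.5% and 17.6% of all genes. After the coding adjustment 19 were lower and 15 higher, against 15.4% and 17.7%. The SR protein kinases and partners, which phosphorylate or import SR proteins, had the lowest median of the 8 lists at -2.11, with 8 of 9 lower. Clk4 was the lowest of them at 1.44 TPM in T29I cells and 18.6 TPM in WT cells, and Clk3 the highest at 7.47 TPM in T29I cells and 11.6 TPM in WT cells. Both adjusted medians were -0.39, with 2 lower after the transcript adjustment and 1 after the coding one, and 0 higher.

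Among SR-related and other regulators, 26 of 43 were lower and 1 higher as deposited. The balance turned to 5 lower and 9 higher after the transcript adjustment, and was 8 lower and 3 higher after the coding one. The background among all genes was 45.7% lower and 9.97% higher as deposited. It was 15.5% and 17.6% after the transcript adjustment and 15.4% and 17.7% after the coding one. Son, a large protein of nuclear speckles, was at 7.84 TPM in T29I cells and 114 TPM in WT cells, the lowest log2 ratio of the list at -3.70. Pcbp1, a poly(C)-binding protein, was at 1075 TPM in T29I cells and 327 TPM in WT cells. Ptbp1, a repressor of exons in ES cells, was at 464 TPM in T29I cells and 452 TPM in WT cells, and Tra2b, an SR-like activator, at 106 TPM in T29I cells and 189 TPM in WT cells. The U5 and tri-snRNP list had 7 of 16 lower and 1 higher as deposited, 2 lower and 1 higher after the transcript adjustment, and 1 lower and 4 higher after the coding one. In it Txnl4a, a small U5 protein, was at 155 TPM in T29I cells and 60.2 TPM in WT cells, and Ppih, a cyclophilin, at 22.1 TPM in T29I cells and 141 TPM in WT cells. Prpf8, the protein at the catalytic centre, was at 137 TPM in T29I cells and 430.0 TPM in WT cells.

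U1 and U2 partners had 10 of 19 lower as deposited, 4 after the transcript adjustment and 1 after the coding one, with 0 higher on each. Among all genes 45.7% were lower and 9.97% higher as deposited. The shares were 15.5% and 17.6% after the transcript adjustment and 15.4% and 17.7% after the coding one. Puf60 was at 346 TPM in T29I cells and 308 TPM in WT cells, and the helicase Ddx46 at 11.9 TPM in T29I cells and 150.0 TPM in WT cells. The Prp19 complex and catalytic step factors had 13 of 24 lower and 0 higher, from Syf2 at 61.4 TPM in T29I cells and 75.9 TPM in WT cells to Cwc22 at 3.04 TPM in T29I cells and 39.7 TPM in WT cells. For the Prp19 list 7 were lower and 2 higher after the transcript adjustment, and 4 lower and 0 higher after the coding one. LSm proteins, which resemble Sm proteins, had a median of -0.55 with 3 of 13 lower and 1 higher as deposited, 2 lower and 3 higher after the transcript adjustment, and 2 lower and 2 higher after the coding one. Lsm5 was at 239 TPM in T29I cells and 88.3 TPM in WT cells, and Lsm14a at 26.6 TPM in T29I cells and 128 TPM in WT cells.

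The genes that assemble Sm rings had a median of -0.52 with 8 of 17 lower and 1 higher as deposited. After the transcript adjustment the median was 0.29 with 5 lower and 2 higher, and after the coding one -0.29 with 1 lower and 4 higher. Gemin4, a part of the SMN complex, was at 88.0 TPM in T29I cells and 16.6 TPM in WT cells, but shares exon bases with Glod4 on the same strand, as Txnl4a, Cwc22 and Clk4 do with other genes. Tgs1, which modifies the cap of snRNAs, was at 3.56 TPM in T29I cells and 44.8 TPM in WT cells. In the minor spliceosome 4 of 9 were lower and 2 higher as deposited, with a median of -0.46. After the transcript adjustment 1 was lower and 1 higher, and after the coding one 1 lower and 2 higher. For both lists, the background among all genes was 45.7% lower and 9.97% higher as deposited. It was 15.5% and 17.6% after the transcript adjustment and 15.4% and 17.7% after the coding one. Zmat5 was at 134 TPM in T29I cells and 44.3 TPM in WT cells, and Snrnp48 at 5.55 TPM in T29I cells and 56.3 TPM in WT cells.

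**Figure D5:**
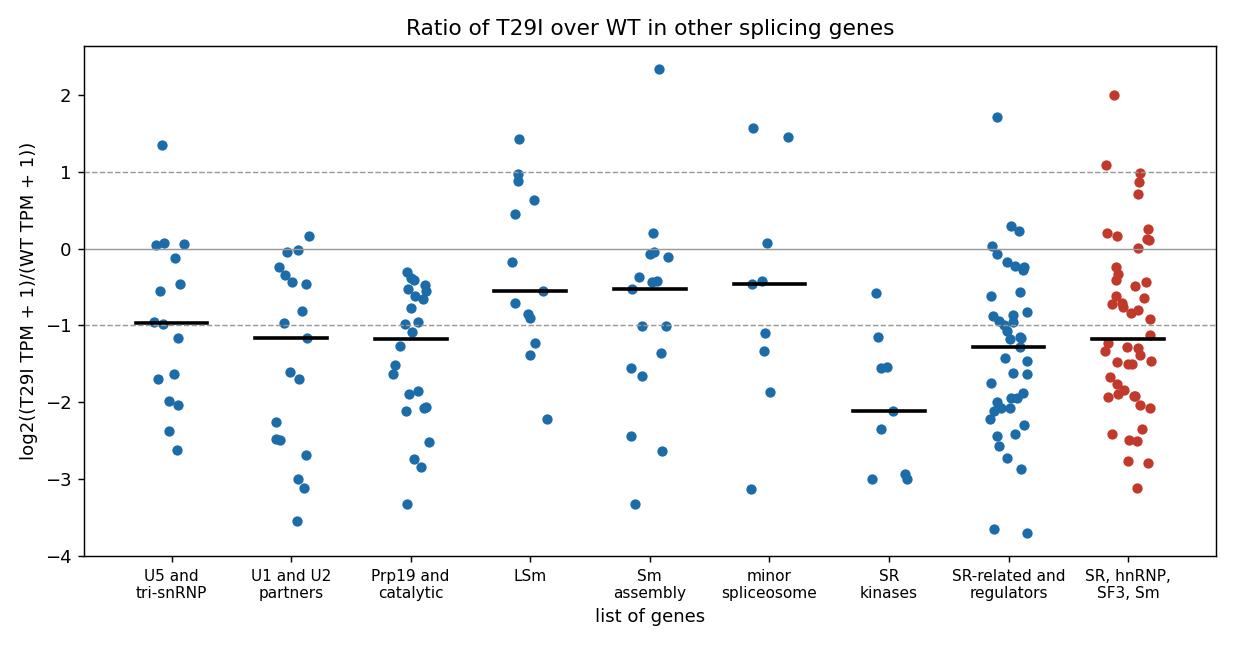
Log2 ratio of T29I over WT on the log2(TPM + 1) scale for 8 lists of other splicing genes (blue) and for the 50 SR, hnRNP, SF3 and Sm genes (red), with a black line at each median. The SR kinases have the lowest median, -2.11, and the minor spliceosome, Sm assembly and LSm lists the highest, between -0.46 and -0.55.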

How the data were processed

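The authors deposited TPM values per gene for 1 T29I and 1 WT library; the labels' protocols name Isogen for extraction and a TruSeq Stranded Total RNA kit, Ribo-Zero included, for the libraries. Aligner, counter, genome build, annotation and the use of strand in counting: not given in the sources used here. Columns were assigned by the sample descriptions, and both sum to 1000000. The members and lists were chosen with earlier results of these data known.

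Of 51826 gene identifiers, 51633 matched GENCODE M21 (GRCm38), which gave lengths, GC content and positions. TPM multiplied by merged exon length and divided by the value of 1 read was whole, within 0.05, for 79.9% of values above 0 in the T29I library and 81.0% in the WT library, against 10% by chance; the reads estimated in this way gave 95% exact Poisson intervals for levels and exact binomial intervals for ratios, which cover counting error only.

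The ratio is log2((T29I TPM + 1)/(WT TPM + 1)), which understates differences of low genes, for genes that averaged 1 TPM or more. Adjusted ratios are what a fit on log2 length and GC content (quadratic terms and their product) left over 9100 coding genes that averaged 5 TPM or more. The fit was run on simulated data whose trend was built from its own terms, which cannot show how well it suits these libraries. A difference that itself followed length or GC content would be taken out too, and cells may express another transcript than the longest. Copies were found with BLAST 2.17.0, and calculations used Python 3.11.15 with pandas 2.3.3 and scipy 1.17.1. No count model was used because there is 1 library per group. Genes were named by a fixed rule: all measured members, and in each other list the highest and lowest ratio at a mean of at least 5 TPM, with Snrnp70, Ptbp1, Tra2b and Prpf8. Exon bases are shared with a gene on the same strand by 5 of the 50 genes and with one on the other strand by 18. Alternatives were the pseudocount, the filter, leaving out the 20 most abundant genes, the shift, both adjustments and the addition of copies.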

Additional observations from a re-analysis of the deposited data

How the results depend on the processing

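No paired analysis was possible because each group has 1 library. As deposited, 26 genes were at least 2-fold lower and 2 higher. With a pseudocount of 0.1 or 5, no filter, a mean of 5 TPM or more, or copies added, the counts stayed at 26 and 2 and the median over the genes lay between -1.18 and -1.02. Relative to the shift the counts were 12 lower and 10 higher, and the medians -0.28 for all 50 genes, -0.12 for the SR proteins, -0.73 for the hnRNPs, 0.25 for SF3A and SF3B together (-0.64 as deposited) and 0.90 for the core Sm proteins. Without the 20 most abundant genes, 25 were lower and 4 higher. The same count over all genes was not made for this setting, so these 2 counts have no background beside them.

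With the transcript adjustment 8 were lower and 8 higher; the medians were 0.040 for all 50 genes, 0.30 for the SR proteins and -0.026 for the hnRNPs, so the first 2 changed sign. Genes called lower that changed sign under it were Srsf3 (0.52), Srsf1 (0.79), Hnrnpa1 (0.043), Hnrnpa2b1 (0.13), Hnrnpd (0.48), Hnrnpr (2.47), Hnrnpu (0.090) and Sf3b3 (0.037). With the coding adjustment, chosen after seeing the data like the addition of copies, 11 were lower and 2 higher, the medians were -0.18 for all 50 genes and -0.55 for the hnRNPs, and Sf3b3 (0.71), Sf3b1 (0.38) and Snrpb2 (0.010) changed sign. Subtracting the shift changed the counts by construction; the cause of the other changes was not tested. Counting error is small at these depths, while the spread between cultures is unknown.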
